A study of Homo sapiens with 18 samples.

Results

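The TGF-beta ligands, receptors and SMADs were followed through 10 genes: the ligands TGFB1, TGFB2 and TGFB3, the signalling receptors TGFBR1 and TGFBR2, the co-receptor TGFBR3, the receptor-activated SMAD2 and SMAD3, and the inhibitory SMAD6 and SMAD7. Their chromatin was taken as all ATAC-seq peaks (hg38) that overlap the GENCODE gene body or the 10 kb upstream of it, here called the gene's window. This gave 207 of 334857 peaks: 52 for TGFBR3, 42 for SMAD3, 24 for SMAD6, 22 for TGFBR2, 17 for TGFB2, 15 for SMAD7, 14 for TGFB1, and 7 each for TGFB3, TGFBR1 and SMAD2. All 7 TGFB3 peaks also lie in the window of IFT43, and 10 of the 14 TGFB1 peaks lie in windows of B9D2, CCDC97, ENSG00000255730 or TMEM91, so these values cannot be assigned to 1 gene.

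The counts come from 18 bulk Omni-ATAC libraries of the established fibroblast line Ccd18-Co, grown from human colon, in 3 groups of 6. The unstimulated group received no cytokines, and the labels name no vehicle for it. The other groups, DMSO and belinostat, both received 3 pulses of TNF, OSM and IL-17A at 10 ng/ml each with IL-1B at 0.1 ng/ml, where a pulse was 72 h of cytokines followed by 96 h of recovery. After 1 week of rest they were given DMSO or belinostat, an inhibitor of histone deacetylases, for 5 days. The labels give belinostat at 250 nM, while the study's text gives a higher concentration. All cytokine-exposed cells were collected 2 weeks later. DMSO minus unstimulated is called the cytokine contrast and asks what accessibility remained different long after the pulses. Belinostat minus DMSO is the belinostat contrast and asks what the inhibitor changed in cells that had seen the cytokines. As a model the series is 1 cell line, and the libraries are not stated to come from separate experiments, so p-values measure the spread between these libraries, which may be technical. There is no group with belinostat alone.

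TGF-beta is secreted in a latent form and, once active, brings the type II receptor TGFBR2 and the type I receptor TGFBR1 together; TGFBR3, also called betaglycan, presents ligand to them. The receptors phosphorylate SMAD2 and SMAD3, which enter the nucleus in complexes with SMAD4, and these complexes bind DNA at the short SMAD box. SMAD7 and SMAD6 are inhibitory: SMAD7 blocks the TGF-beta receptor and recruits ubiquitin ligases to it, SMAD6 acts mainly on the BMP branch, and SMAD7 is itself a textbook target of the pathway and so a feedback inhibitor. In intestinal fibroblasts the pathway is known for driving matrix production and the myofibroblast state.

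Sequences within some of the peaks named below are shown first. In every one capitals mark words searched on both strands: the SMAD palindrome GTCTAGAC, AP-1 TGACTCA, TEAD GGAATG, CEBP TTGCNNAA, RUNX TGTGGT, E-box CAGCTG and NF-kB GGANTTTCC; the short SMAD box AGAC is left in lower case and is part of the palindrome. The first pair lies at or upstream of the starts of the inhibitory SMAD genes and is shown because each holds the palindrome. They are the 300 bases chr18:48952213-48952512 (hg38, plus strand; SMAD7 is on the minus strand) from the middle of the SMAD7 start peak, which lies upstream of the gene with its centre 1397 bp from the canonical start, and the 250 bases before the SMAD6 start, chr15:66701986-66702235 (RefSeq promoter, GRCh38.p14, plus strand), which lie inside the SMAD6 start peak.
SMAD7 start peak: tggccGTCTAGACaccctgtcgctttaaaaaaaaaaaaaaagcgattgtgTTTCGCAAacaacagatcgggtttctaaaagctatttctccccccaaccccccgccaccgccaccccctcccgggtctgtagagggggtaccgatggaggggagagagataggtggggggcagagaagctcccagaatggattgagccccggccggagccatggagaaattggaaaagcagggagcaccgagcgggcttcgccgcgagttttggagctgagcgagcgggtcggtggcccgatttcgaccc
SMAD6 promoter: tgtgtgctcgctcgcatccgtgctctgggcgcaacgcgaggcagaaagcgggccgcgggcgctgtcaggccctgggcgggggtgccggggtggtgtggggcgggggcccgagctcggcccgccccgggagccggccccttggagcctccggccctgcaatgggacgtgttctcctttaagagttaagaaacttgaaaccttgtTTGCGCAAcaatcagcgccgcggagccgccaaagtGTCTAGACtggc

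The next 3 are single elements named in the comparisons below, all hg38 plus strand. The SMAD7 element upstream of the gene, chr18:48955564-48955726, is shown whole because it was lower after the cytokines and higher after belinostat. The SMAD6 intronic element (middle 300 bases, chr15:66748133-66748432) had the smallest cytokine p of the SMAD genes. The TGFB2 intronic element (chr1:218402378-218402677) is the ligand peak with the smallest cytokine p in TGFB2.
SMAD7 upstream element: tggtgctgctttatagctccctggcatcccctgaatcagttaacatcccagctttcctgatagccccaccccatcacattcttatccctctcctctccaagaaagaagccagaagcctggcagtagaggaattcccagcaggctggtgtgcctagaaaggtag
SMAD6 intronic element: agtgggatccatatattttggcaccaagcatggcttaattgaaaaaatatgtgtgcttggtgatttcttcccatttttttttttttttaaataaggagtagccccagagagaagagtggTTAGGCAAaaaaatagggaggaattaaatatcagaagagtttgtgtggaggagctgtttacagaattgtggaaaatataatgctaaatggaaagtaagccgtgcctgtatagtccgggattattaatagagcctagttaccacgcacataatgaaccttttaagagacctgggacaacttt
TGFB2 intronic element: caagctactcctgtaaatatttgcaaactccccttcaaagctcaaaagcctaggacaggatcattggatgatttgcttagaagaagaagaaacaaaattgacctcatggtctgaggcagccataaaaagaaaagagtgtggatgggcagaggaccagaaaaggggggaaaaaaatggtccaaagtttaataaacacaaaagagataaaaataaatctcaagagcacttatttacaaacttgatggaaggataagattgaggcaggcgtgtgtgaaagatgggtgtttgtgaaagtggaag

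The libraries held between 4661678 and 11352032 counts in peaks, and the belinostat libraries were shallower than the DMSO libraries (exact two-sided permutation p = 0.00216, the smallest that 6 against 6 allows; Benjamini-Hochberg adjusted over 3 pairs of groups 0.00325). Of all counts, the 10000 strongest peaks held 36.8% ± 1.27 (SD, n = 6) without stimulation, 33.1% ± 1.28 with DMSO and 30.9% ± 2.23 with belinostat, a lower share after the cytokines (exact permutation p = 0.00216, adjusted 0.00325); its part in the results below was not tested. For the labelled cell type, all 12 fibroblast markers had a start peak, summing to 190 to 356 CPM (counts per 1000000 TMM-scaled library counts), against 7.28 to 13.4 for 6 of 6 epithelial markers, 23.8 to 36.4 for 3 of 6 leukocyte markers (mostly CD68 and CD14) and 4.35 to 7.79 for 3 of 4 endothelial markers (mostly TEK). The leukocyte PTPRC and LCP1 and the endothelial CDH5 had none. The lists differ in length, so the sums are not on one scale. The mean per start peak was 22.7 CPM for fibroblast, 1.72 for epithelial, 9.81 for leukocyte and 2.00 for endothelial markers. In unstimulated libraries CD68 (mean 18.0 CPM) and CD14 (13.4) lay above COL3A1, DCN, LUM and FAP and below the other fibroblast markers. Because strong peaks lost counts relative to weak ones, fold changes were computed with 2 scalings. TMM over all peaks sets 1 factor per library, and loess offsets remove a trend with abundance within each library. Values with no scaling named are from TMM, and not all of them are followed by the loess value.

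The cytokine contrast was lower in the windows of all 10 genes. The fall passed the test in 10 of 10, but 62.5% of all 19180 protein-coding gene windows did the same and 10.9% were higher (edgeR quasi-likelihood test, Benjamini-Hochberg adjusted p under 0.05), and the median of all windows was itself -0.26 on the log2 scale. The inhibitory SMADs lay furthest below that median: SMAD7 at -0.51 ± 0.08 (log2 fold change ± SE; edgeR adjusted p = 8.97e-05) and SMAD6 at -0.50 ± 0.08 (edgeR adjusted p = 7.5e-05), which put both among the lowest 2% of gene windows, at percentiles 1.27 and 1.37. The receptor TGFBR1 followed at -0.41 and the signal carriers SMAD2 and SMAD3 at -0.37 each, while the ligands TGFB2 and TGFB3 changed least, at -0.23 and -0.24, close to the median of all windows.

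With loess offsets the median of all windows was -0.02 and 2 of the 10 windows were still lower, SMAD6 at -0.22 ± 0.03 (edgeR adjusted p = 0.000158) and SMAD7 at -0.22 ± 0.03 (edgeR adjusted p = 9.57e-05), against 8.33% of all windows lower and 14% higher. The other 8 lay between -0.12 (TGFBR1, edgeR adjusted p = 0.0563) and 0.06 (TGFB2, edgeR adjusted p = 0.256), and TGFB2 and TGFB3 changed sign. SMAD6 and SMAD7 passed the test under all 9 alternative scalings, filters and tools and in all 18 fits that left out 1 library; a direct test of SMAD6 or SMAD7 against the other windows was not made.

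Level by level, the SMAD7 window summed to 163 CPM in the lowest, 173 in the median and 192 in the highest unstimulated library. In DMSO libraries these values were 108, 120 and 141, and in belinostat libraries 121, 144 and 184. DMSO and unstimulated libraries did not overlap. Of the 6 belinostat libraries 3 lay within the DMSO range, 2 between the ranges and 1 within the unstimulated range. The SMAD6 window went from 209, 232 and 257 CPM in unstimulated to 140, 162 and 185 in DMSO and stayed at 136, 161 and 194 in belinostat libraries. SMAD3, the window with the most counts, had 446 to 541 CPM in unstimulated, 305 to 435 in DMSO and 280 to 433 in belinostat libraries. TGFB3, the one with the fewest, had 39.5 to 48.9, 31.8 to 41.9 and 25.4 to 36.3. CPM sums over a whole window, so these levels are not compared between genes of different length.

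**Figure D1:**
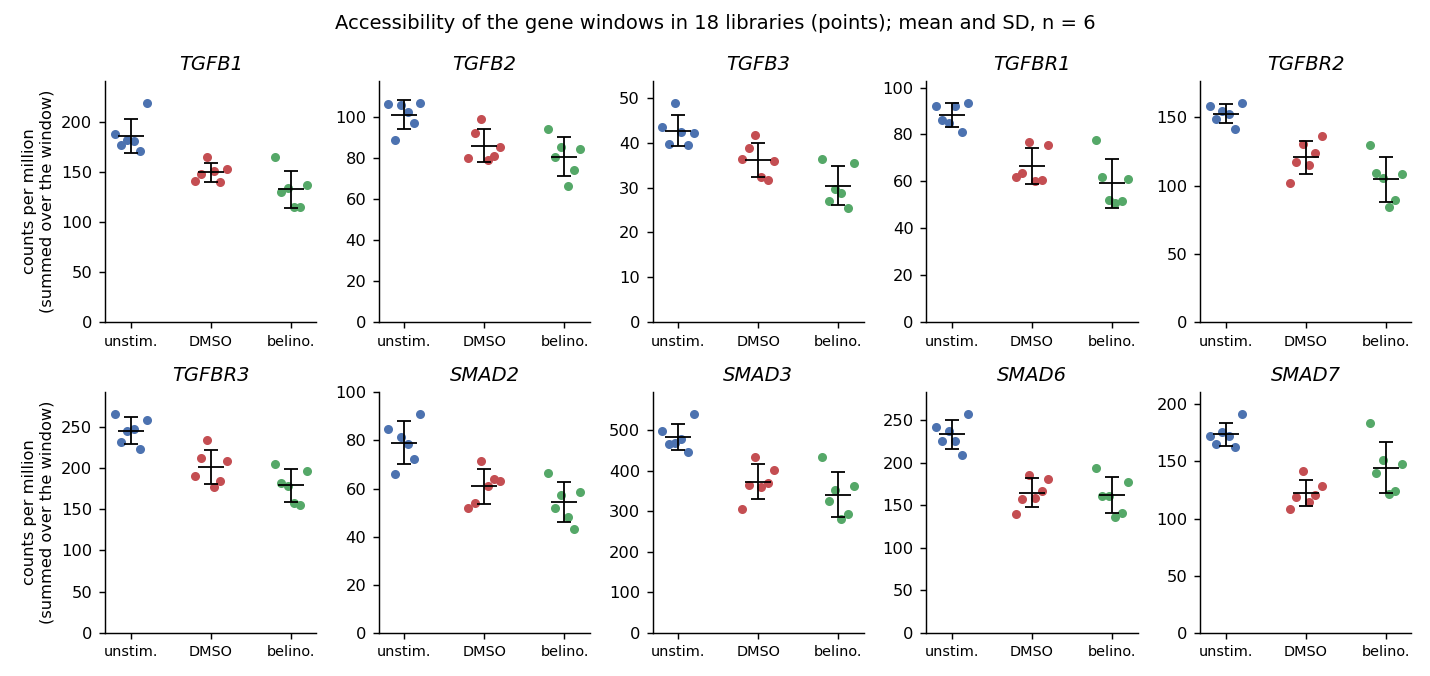
CPM summed over each gene's window (y axes start at 0) in the 18 libraries, with points for libraries and bars for the mean and SD of 6 libraries. The DMSO points lie below the unstimulated ones in SMAD6, SMAD7, SMAD3, TGFB1, TGFBR1 and TGFBR2 without overlap, and SMAD7 is the panel in which the belinostat mean is higher than the DMSO mean.

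**Figure D2:**
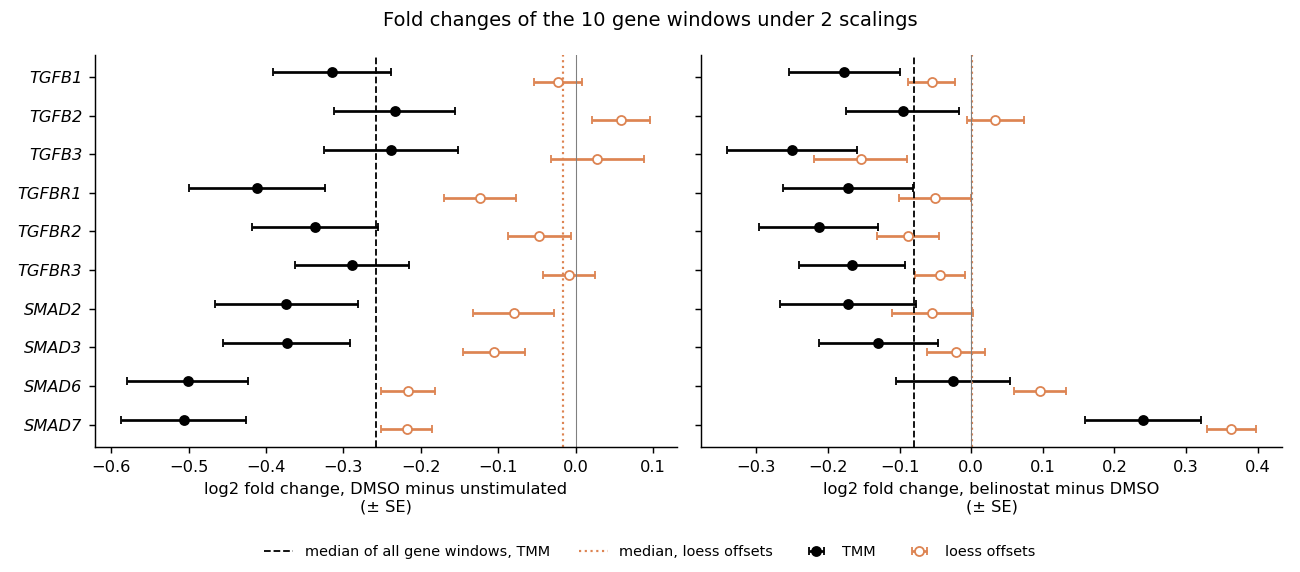
Log2 fold changes ± SE of the 10 windows in the cytokine contrast (left) and the belinostat contrast (right), with filled points for TMM and open points for loess offsets; vertical lines mark the medians of all gene windows. SMAD6 and SMAD7 are the leftmost in the cytokine panel under both scalings, and SMAD7 is the rightmost in the belinostat panel at 0.24 (TMM) and 0.36 (loess).

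At single peaks the cytokine contrast closed 65 of the 207 (31.4%) and opened 5 (2.42%), where 9.73% of all peaks closed and 9.51% opened. The median log2 fold change of the 207 was -0.28 against 0.13 for all peaks. These peaks are stronger than most, with a median average log2 CPM of 1.47 against 0.19 and a median width of 388 bp against 276 bp, and strong peaks closed widely: at an average log2 CPM of 3 and over, 40 of 54 of them (74.1%) closed against 66.6% of all such peaks. Between 1 and 3 it was 23 of 72 (31.9%) against 16.6%, and 1 (1.39%) opened against 3.88%. Under 1 it was 2 of 81 (2.47%) against 0.822%, while 4 (4.94%) opened against 12.2%. With loess offsets 12 closed and 2 opened, where 1.91% and 2% of all peaks did, and 10 of the 12 were among the 65. In 31 peaks (15%) every DMSO library was below every unstimulated one and in 1 every one was above, where 3.82% and 2.25% of all peaks were so separated.

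**Figure D3:**
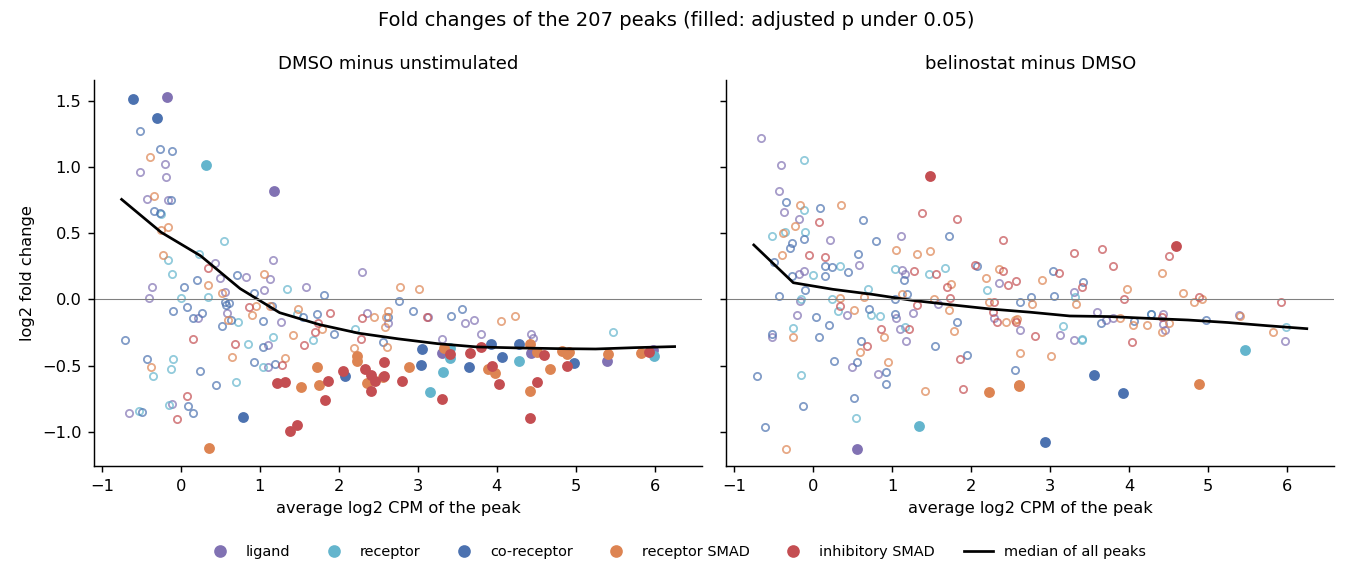
Log2 fold change against the average log2 CPM for the 207 peaks in the cytokine contrast (left) and the belinostat contrast (right), coloured by role and filled where the adjusted p was under 0.05; the line is the median of all peaks in steps of 0.5. The line falls from 0.76 at the weak end to about -0.37 at the strong end on the left, where 65 filled points lie below 0 and 5 above, and most inhibitory SMAD points lie below the line.

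By role, 25 of the 39 peaks of the inhibitory SMADs closed (64.1%) and none opened in the cytokine contrast, 14 of 24 in SMAD6 and 11 of 15 in SMAD7, with a median of -0.50. Of the receptor SMAD peaks 21 of 49 closed (42.9%, 20 of these in SMAD3), of the signalling receptors 6 of 29 (20.7%), of the co-receptor 9 of 52 (17.3%) and of the ligands 4 of 38 (10.5%). Of all peaks 9.73% closed, 16.6% of those at an average log2 CPM of 1 to 3 and 66.6% of those at 3 and over. The median abundance differs between these sets, from an average log2 CPM of 0.67 in TGFBR3 to 2.30 in the inhibitory SMADs, and its part in the order was not tested.

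In SMAD6 the peak with the smallest p lies in an intron, 46046 bp into the gene at chr15:66747726-66748839. It had 27.9, 30.7 and 39 CPM (lowest, median, highest) in unstimulated, 11.3, 18.2 and 21.4 in DMSO and 12.6, 15.7 and 19.7 in belinostat libraries. The cytokine-exposed groups overlapped each other and neither overlapped the unstimulated group. The fall was -0.90 ± 0.12 on the log2 scale, 0.537 of the unstimulated level (edgeR adjusted p = 3.57e-09), and -0.52 with loess offsets (edgeR adjusted p = 2.71e-07). A weaker intronic SMAD6 peak at chr15:66762278-66762521 fell by 1.00 ± 0.23 (edgeR adjusted p = 0.00096). The SMAD6 start peak, chr15:66700916-66702636 over exon 1, fell by 0.40 ± 0.10 (edgeR adjusted p = 0.00358) but stood at 0.03 with loess offsets (edgeR adjusted p = 0.794).

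In SMAD7 all 15 peaks had a negative cytokine fold change, between -0.95 and -0.14, where 57.7% of all peaks were above 0, and 18.6% of those with an average log2 CPM of 1 and over, as all 15 have. The peak with the smallest p lies 5115 bp upstream of the start at chr18:48955901-48956259: 11.2, 12.4 and 14.5 CPM in unstimulated against 4.57, 7.28 and 10.5 in DMSO libraries, without overlap, a fall of 0.76 ± 0.14 (edgeR adjusted p = 3.66e-05; -0.44 with loess offsets, edgeR adjusted p = 0.00848). Its neighbour shown above, chr18:48955564-48955726, fell by 0.95 ± 0.23 (edgeR adjusted p = 0.0023). The start peak that holds the palindrome, chr18:48951691-48953034, had 33.8 to 41.4 CPM in unstimulated and 22.2 to 30.7 in DMSO libraries and fell by 0.50 ± 0.11 (edgeR adjusted p = 0.000546), or -0.11 with loess offsets (edgeR adjusted p = 0.294).

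**Figure D4:**
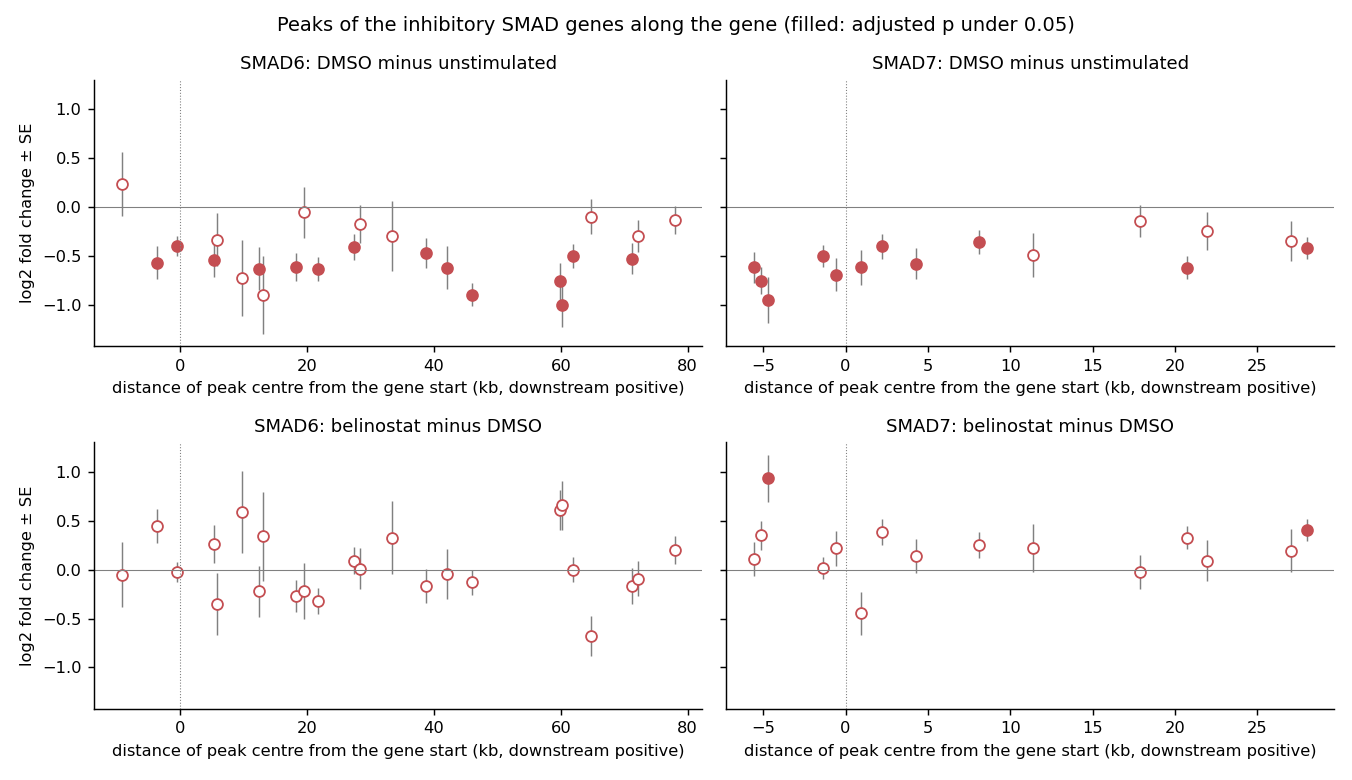
Log2 fold change ± SE of each SMAD6 (left) and SMAD7 (right) peak against the distance of its centre from the gene start, for the cytokine contrast (top) and the belinostat contrast (bottom); filled points passed the test. Most points lie below 0 in the top row, 25 of them filled, and in the SMAD7 panel of the bottom row 13 of 15 lie above 0, with 2 filled.

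The receptor SMADs transmit the signal, and SMAD3 binds DNA directly. The SMAD3 peak with the smallest p, chr15:67080475-67081460 in an intron, had 24.6 to 30.7 CPM in unstimulated and 12 to 19.8 in DMSO libraries, with no overlap, a fall of 0.69 ± 0.12 (edgeR adjusted p = 9.12e-06; -0.32 with loess offsets, edgeR adjusted p = 0.00861). The largest fall among the called SMAD3 peaks was in a weak one at chr15:67115034-67115285, -1.12 ± 0.33 (edgeR adjusted p = 0.0119), which is not called without unstimulated replicate 4. SMAD2 had 1 peak called in this contrast, its start peak chr18:47929852-47931680, which fell by 0.40 ± 0.10 (edgeR adjusted p = 0.00352; 0.02 with loess offsets, edgeR adjusted p = 0.841).

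Among the receptors, an intronic TGFBR2 element at chr3:30680813-30682166 had the smallest p: 11.1, 12.5 and 12.9 CPM in unstimulated, 5.24, 8.16 and 8.7 in DMSO and 5.07, 7.04 and 7.62 in belinostat libraries. The unstimulated libraries stood apart from all the others, at a cytokine fold change of -0.70 ± 0.13 (edgeR adjusted p = 9.57e-05; -0.39 with loess offsets, edgeR adjusted p = 0.0298). The TGFBR1 start peak, chr9:99104347-99106119 and the peak with most counts in its window, had 74 to 86.3 CPM in unstimulated and 53 to 70 in DMSO libraries and fell by 0.42 ± 0.10 (edgeR adjusted p = 0.00187), with a loess value near 0 (edgeR adjusted p = 0.971). For the co-receptor TGFBR3 the start peak chr1:91885310-91886598 had the smallest p, -0.48 ± 0.11 (edgeR adjusted p = 0.000911; -0.09 with loess offsets, edgeR adjusted p = 0.397). Across the 10 start peaks 6 (60%) closed and none opened with TMM, against 66.6% and 0.332% of all peaks at an average log2 CPM of 3 and over, as all 10 have, while with loess offsets none was called in either direction; their loess fold changes ran from -0.11 in SMAD7 to 0.19 in TGFB2.

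Of the 38 peaks of the ligand genes 4 closed (10.5%) and 2 opened (5.26%), against 9.73% and 9.51% of all peaks. The strong intronic TGFB2 element shown above, chr1:218402019-218403035, had 46.4 to 57.6 CPM in unstimulated and 34.1 to 45.5 in DMSO libraries, with no overlap, and fell by 0.46 ± 0.10 (edgeR adjusted p = 0.001; -0.06 with loess offsets, edgeR adjusted p = 0.564). A weaker intronic TGFB2 peak at chr1:218376797-218377031 went the other way, from 0.779, 1.38 and 2.38 CPM to 1.73, 2.6 and 3.24, a rise of 0.82 ± 0.24 (edgeR adjusted p = 0.0105) that is also called with loess offsets (0.86, edgeR adjusted p = 0.0242) and in all 18 fits without 1 library. The largest of the 5 rises was at a TGFB1 exon 4 peak, chr19:41342078-41342293, from 0.127 to 0.322 CPM up to 0.442 to 1.08 CPM (1.53 ± 0.48, edgeR adjusted p = 0.016), a peak with 75 counts over all 18 libraries that did not pass with loess offsets (edgeR adjusted p = 0.15). The remaining rises, at intronic TGFBR3 peaks chr1:91802794-91802948 and chr1:91819369-91819621 and a TGFBR2 exon 4 peak chr3:30672210-30672661, rest on 47, 66 and 120 counts, and are lost in 7, 11 and 7 of the 18 fits that leave out 1 library.

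The belinostat contrast called fewer peaks. Of the 207 peaks 2 opened and 10 closed (0.966% and 4.83%), against 0.607% and 1.75% of all peaks; both that opened are SMAD7 peaks, and the closed ones are 4 in SMAD3, 3 in TGFBR3, 2 in TGFBR2 and 1 in TGFB2. With loess offsets it was 9 opened and 9 closed, against 0.945% and 1.51% of all peaks; 6 of the 9 opened lie in SMAD7, 2 in SMAD6 and 1 in SMAD3. By abundance, 4 of the 54 peaks at an average log2 CPM of 3 and over closed (7.41%, against 9.82% of all such peaks) and 1 opened (1.85%, against 0.668%). Between 1 and 3 it was 5 of 72 closed (6.94%, against 4.02%) and 1 opened (1.39%, against 1.2%), and under 1 it was 1 of 81 closed (1.23%, against 0.128%) and 0 opened, against 0.436%. In 10 peaks every belinostat library was below every DMSO library and in 1 above, where 1.04% and 0.467% of all peaks were separated in that way.

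No window passed the test in this contrast (edgeR, 0 of 10, against 0.125% of all windows higher and 2.04% lower). At an unadjusted edgeR p under 0.05 there were 1 higher and 4 lower, and DESeq2 called 1, SMAD7, higher. No share of all windows is given at either of these criteria, so these counts have no background here. SMAD7 was the one window with a value above 0, at 0.24 ± 0.08 (edgeR adjusted p = 0.104) against a median of -0.08 over all windows, percentile 95.2. The value was above 0 under all 9 alternatives, from 0.14 to 0.36, and passed the test in 3: loess offsets (edgeR adjusted p = 4.43e-07, where 2.61% of all windows were higher and 2.64% lower), library totals (edgeR adjusted p = 0.00011) and DESeq2 (adjusted p = 0.0293). Of the 15 SMAD7 peaks 13 were above 0, where 50.9% of all peaks and 35.9% of those with an average log2 CPM of 1 and over were. SMAD6 stood at -0.03 ± 0.08 (edgeR adjusted p = 0.875) and the other 8 windows between -0.25 (TGFB3, edgeR adjusted p = 0.123) and -0.10 (TGFB2, edgeR adjusted p = 0.483). One library matters here: belinostat replicate 1 was the highest of its group in all 10 windows. Other groups also had such a library: DMSO replicate 3 was highest in 9 windows and unstimulated replicate 6 in 8. Each also had its group's highest share of counts in the 10000 strongest peaks (34.6%, 35.2% and 39.0%), and the part of that share was not tested. Without belinostat replicate 1, 7 windows (TGFB1, TGFB3, TGFBR1, TGFBR2, TGFBR3, SMAD2 and SMAD3) were lower, against 22.6% of all windows lower and 1.45% higher. SMAD7 then stood at 0.16 (edgeR adjusted p = 0.0809).

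The 2 SMAD7 elements called opened in the belinostat contrast were both called closed in the cytokine contrast with TMM. The groups are separate cultures, so no element was followed over time. The intronic one, chr18:48922503-48923401 and 28013 bp into the gene, had 25.2, 26.1 and 27.6 CPM in unstimulated, 18.5, 19.3 and 21.9 in DMSO and 22.4, 25.2 and 32.1 in belinostat libraries. The DMSO libraries lie below all 12 others, and the unstimulated and belinostat libraries overlap. The element fell by 0.42 ± 0.11 in the cytokine contrast (edgeR adjusted p = 0.00452), or -0.05 with loess offsets (edgeR adjusted p = 0.752). It rose by 0.40 ± 0.11 in the belinostat contrast (edgeR adjusted p = 0.0281), or 0.57 with loess offsets (edgeR adjusted p = 6.66e-09). Belinostat minus unstimulated was -0.02 ± 0.11 (edgeR adjusted p = 0.911), but 0.53 with loess offsets (edgeR adjusted p = 7.52e-09). The DMSO libraries stand in both contrasts, so the pair of opposite changes shares 6 libraries and is not 2 independent observations.

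The SMAD7 upstream element, chr18:48955564-48955726, had 1.95, 2.89 and 4.32 CPM in unstimulated, 0.672, 1.76 and 1.87 in DMSO and 1.25, 2.94 and 5.01 in belinostat libraries. DMSO lay below unstimulated without overlap, while DMSO and belinostat overlapped. The rise after belinostat was 0.93 ± 0.24, 1.91 times the DMSO level (edgeR adjusted p = 0.0138; 0.96 with loess offsets, edgeR adjusted p = 0.011). Both openings depend on single libraries: neither is called without belinostat replicate 1 or without belinostat replicate 6, the intronic one is also lost without DMSO replicates 2, 3, 4 or 5 or belinostat replicate 3 and is called in 11 of 18 such fits, and the upstream one is also lost without DMSO replicate 1 and is called in 15 of 18.

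TGFBR3, which presents ligand to the signalling receptors, held the closing with the smallest p. The element at chr1:91891051-91891813, 5281 bp before the start of its canonical transcript but inside the gene body, had 7.28, 9.51 and 11.1 CPM in unstimulated, 6.41, 9.21 and 10.5 in DMSO and 3.19, 4.08 and 5.82 in belinostat libraries. The unstimulated and DMSO libraries overlap almost fully and all 6 belinostat libraries lie below them. The cytokine fold change was -0.09 ± 0.14 (edgeR adjusted p = 0.673) and the belinostat fold change -1.08 ± 0.16, 0.473 of the DMSO level (edgeR adjusted p = 3.37e-07), called under all 9 alternatives and in all 18 fits without 1 library. A second TGFBR3 element in an intron, chr1:91712971-91713769, fell from 13.6 to 17.8 CPM in DMSO to 6.38 to 12.6 in belinostat libraries, -0.70 ± 0.13 (edgeR adjusted p = 0.000136), and is also called under all 9 alternatives.

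In SMAD3 the element at chr15:67167419-67168841, 102528 bp into the gene in an intron, was lower in both contrasts with TMM. It had 36.7, 39.7 and 44 CPM in unstimulated, 23.9, 30.3 and 35.5 in DMSO and 16.2, 19.2 and 23.7 in belinostat libraries, so that neither neighbouring pair of groups overlaps. The belinostat fold change was -0.64 ± 0.11 (edgeR adjusted p = 3.47e-05; -0.46 with loess offsets, edgeR adjusted p = 1.08e-06). The cytokine fold change of -0.41 ± 0.11 (edgeR adjusted p = 0.00406) was -0.02 with loess offsets (edgeR adjusted p = 0.86). Another SMAD3 intronic peak, chr15:67157946-67158922, fell from 4.13 to 5.1 CPM in DMSO to 2.21 to 3.33 in belinostat libraries, -0.70 ± 0.19 (edgeR adjusted p = 0.0202). That call is lost without DMSO replicate 2, belinostat replicate 2 or belinostat replicate 4.

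Of the other closings, an intronic TGFBR2 peak at chr3:30646486-30646808 fell by 0.96 ± 0.25 (edgeR adjusted p = 0.0118), with 1.74 to 3.24 CPM in DMSO and 0.925 to 2.07 in belinostat libraries. The TGFBR2 start peak, chr3:30606176-30607435, was the 1 start peak of 10 called: 40.7, 42.2 and 53 CPM in DMSO against 26.9, 35.1 and 44.1 in belinostat libraries, -0.38 ± 0.11 (edgeR adjusted p = 0.0292). It did not pass with loess offsets (-0.18, edgeR adjusted p = 0.0738) and is lost in 6 of 18 fits without 1 library, those without DMSO replicate 3 or 6 or belinostat replicate 2, 3, 4 or 5. The weak TGFB2 intronic peak chr1:218371972-218372300 fell by 1.13 ± 0.34 (edgeR adjusted p = 0.0442) on 152 counts and is called in 8 of 18 such fits.

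**Figure D5:**
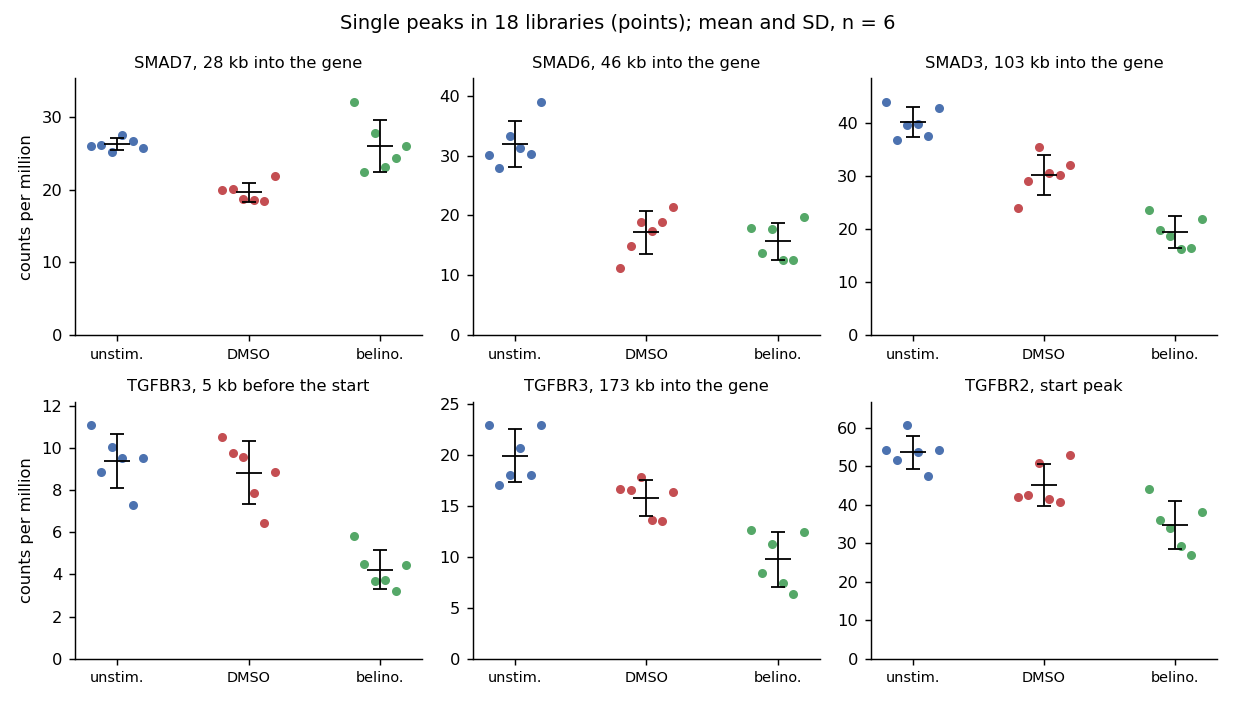
CPM of 6 peaks in the 18 libraries, with points for libraries and bars for the mean and SD of 6; y axes start at 0 and distances are from the gene start. In the SMAD7 peak the DMSO libraries (18.5 to 21.9) lie below both other groups, in the SMAD6 peak both cytokine-exposed groups lie below the unstimulated one, and in the TGFBR3 and SMAD3 peaks the belinostat libraries are the lowest.

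Setting the contrasts side by side over the same peaks, 65 were closed in the cytokine contrast. Of these, 2 opened in the belinostat contrast, 3 closed in it and 60 were not called. None of the 5 opened in the cytokine contrast was called in the belinostat contrast. Of the 137 peaks not called in the cytokine contrast, 7 closed in the belinostat contrast. These counts share the DMSO libraries. Against unstimulated cells the belinostat group had 72 closed and 10 opened peaks, where 13.7% and 16.8% of all peaks did; with loess offsets it was 20 and 9, where 4.93% and 3.82% did. In 31 peaks every belinostat library was below every unstimulated one and in 0 above, where 6.16% and 2.58% of all peaks were. All 10 windows were lower (66.8% of all windows were), from -0.58 ± 0.09 in TGFBR1 (edgeR adjusted p = 3.04e-06) to -0.27 ± 0.08 in SMAD7 (edgeR adjusted p = 0.00363). SMAD7 changed sign with loess offsets, 0.15 ± 0.03 (edgeR adjusted p = 0.00133), while TGFBR1, TGFBR2, SMAD3 and SMAD6 were lower, where 20.4% of all windows were higher and 18.3% lower.

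Around the 10 genes, 58 other genes of the pathway were measured as windows. In the cytokine contrast 54 were lower and none higher with a median of -0.33, and the background of 62.5% lower applies; with loess offsets 6 (10.3%) were lower and 1 (1.72%) higher, against 8.33% and 14% of all windows. Of the 22 transcriptional targets 20 were lower, among them CCN1 (-0.51) and CCN2, connective tissue growth factor (-0.47). Of the 14 latency and activation genes 13 were lower, led by THBS1, an activator of latent ligand (-0.58), ITGB1 (-0.41) and MMP14 (-0.40). All 14 of the other SMADs, nuclear partners and ligases were lower, led by SMAD4 (-0.39), SMAD1 (-0.39) and TGIF1 (-0.39). So were 7 of 8 co-receptors and receptor regulators, led by the pseudoreceptor BAMBI (-0.45), ENG (-0.35) and TGFBRAP1 (-0.34). These role counts and fold changes are with TMM. With loess offsets 3 of the 22 targets were lower and 1 was higher. Lower there were also 2 of the 14 latency and activation genes and 1 of the 8 co-receptors and receptor regulators. None of the 14 other SMADs, nuclear partners and ligases was called with loess offsets.

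In the belinostat contrast 3 of the 58 (5.17%) were lower and none higher, against 2.04% and 0.125% of all windows: the membrane protease MMP14 at -0.42 ± 0.08 (edgeR adjusted p = 0.00261), the co-receptor endoglin, ENG, at -0.28 ± 0.07 (edgeR adjusted p = 0.0219) and the target BHLHE40 at -0.32 ± 0.09 (edgeR adjusted p = 0.0495). MMP14 had 88.3 to 111 CPM in DMSO and 63.4 to 89.9 in belinostat libraries, and was lower with loess offsets as well (edgeR adjusted p = 0.000316). With loess offsets 2 (3.45%) were lower and 4 (6.90%) higher, against 2.64% and 2.61% of all windows. Both lower ones were latency and activation genes. No co-receptor, receptor regulator or target was lower with loess offsets, so ENG and BHLHE40 did not pass there. The median of the 58 was -0.12 against -0.08 for all windows.

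Short words were counted in the peaks as a description. In the middle 300 bases the SMAD box AGAC occurred in 87.4% of the 207 peaks and 90% of all peaks, AP-1 TGACTCA in 13% and 12.8%, RUNX TGTGGT in 22.7% and 22.6%, E-box CAGCTG in 21.7% and 23.2% and NF-kB GGANTTTCC in 0.966% and 1.38%. TEAD GGAATG was in 29.5% and 21.3%, and CEBP TTGCNNAA in 17.4% and 14.1%. In the same middle 300 bases the palindrome GTCTAGAC occurred in 1 of the 207, the SMAD7 start peak, and in 0.245% of all peaks. Among 26 RefSeq promoters matched to the 10 genes it was in 1, that of SMAD6, where 0.202% of 35116 promoters hold it. That copy lies inside the SMAD6 start peak but outside its middle 300 bases, so the count of peaks leaves it out. The median GC content was 47.3% against 49.7%. These are descriptions of letters, and a word is not evidence of a bound factor.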

How the data were processed

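Chromatin accessibility was measured by bulk Omni-ATAC in 18 libraries of the fibroblast line Ccd18-Co, 6 in each of 3 groups taken from the sample labels. The deposited table holds raw fragment counts per consensus peak: per the study's methods, the authors ran the ENCODE pipeline for ATAC-seq (hg38), called peaks with MACS2, merged them across conditions, excluded a blacklist and counted fragments of up to 1000 bp with csaw. The submitters' processing notes name MACS2 and ChIPseeker 1.34.1. Counts in merged peaks carry no correction for library complexity or for the share of fragments in peaks, and one peak set for all groups keeps peaks that are open in 1 group only. The 10 member genes and all gene lists and tests were chosen with earlier results of these data known.

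Peaks were assigned to genes with GENCODE release 44 (hg38; no peak ends past its chromosome). The members' peaks overlap the gene body or 10 kb upstream; a start peak is the most abundant peak within 1 kb of the canonical start. edgeR 4.0.16 (R 4.3.3, glmQLFit with the legacy method and glmQLFTest) was fitted to all 334857 peaks with TMM factors over peaks and 1 mean per group; the filter at an average log2 CPM of -3 removed 0 peaks. For 19180 protein-coding genes the counts in the window were summed and put through the same test. The adjusted p is Benjamini-Hochberg over all peaks or all windows, and under 0.05 a peak is called opened or closed. The script was tested on simulated data. The SE given with a fold change was derived from the test, as the absolute log2 fold change divided by the square root of its quasi-likelihood F statistic. CPM values use the TMM-scaled totals. Totals of 4661678 to 11352032 counts set the precision, and weak peaks with under 100 counts over 18 libraries are imprecise. Within a group, pairs of libraries differed by 1.03 to 2.32 times the sampling variance and no library was treated as a duplicate.

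Alternatives were library totals, TMM over the weaker 50% of peaks, TMM over 10 kb bins, loess offsets (span 0.3, 4 iterations), the newer quasi-likelihood method, an average log2 CPM over 0, no filter, a replicate block, DESeq2 1.42.0, other windows and each library left out. Replicate numbers are shared between groups, but of 18 same-numbered pairs 1 had a correlation over 0.1 (range -0.21 to 0.13), so the numbers do not pair the samples. Peaks named are the start peak of each gene, the peak with the smallest p of each gene in the cytokine and belinostat contrasts, and the 5 largest rises and falls among called peaks; of the pathway genes, up to 3 of the largest called in each role and direction. Library totals were compared by an exact two-sided permutation test. Words were searched in the middle 300 bases of each peak and in RefSeq promoters (Python 3.11.15), and the promoter sequence comes from RefSeq with build GRCh38.p14. The study's text and supplement give a much higher belinostat concentration than the labels, and in places a lower one of IL-1B. The labels were used, and the doses of these libraries are therefore not settled. Some items withheld for evaluation are not reported here.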

Additional observations from a re-analysis of the deposited data

Results flagged for a closer look

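Of 138 sets of 6 libraries (among them those of the 10 windows and the named peaks in 3 groups), 3 had 1 library far from the other 5 by Dixon's criterion. Chance gives about 1 in 20. The TGFB1 window had 218.6 CPM in unstimulated replicate 6 against a group median of 181.2. The SMAD7 upstream element chr18:48955564-48955726 had 0.672 CPM in DMSO replicate 1 against a median of 1.76, and its opening after belinostat is not called without that library. The TGFB1 start peak chr19:41353316-41354323 had 27.5 CPM in belinostat replicate 1 against a median of 17.5. That library was also the highest of its group in all 10 windows, as DMSO replicate 3 was in 9 and unstimulated replicate 6 in 8.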

How the results depend on the processing

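Of 204 recomputed counts under the alternatives 154 stayed within 1.5 times the reported value, as did 301 of 324 with a library left out. Of 270 window fold changes 244 kept direction and call, and of 447 peak fold changes 379; DESeq2, the newer quasi-likelihood method, no filter and TMM over 10 kb bins reversed none. Replicate numbers do not pair the samples (5 of 18 correlated best with their own number); the replicate block gave 5 opened and 67 closed peaks in the cytokine contrast and 2 and 10 in the belinostat contrast, and SMAD7's window at 0.24 (edgeR adjusted p = 0.0532). The 10 kb bins here were summed from peaks, not from the genome, and weak peaks are limited by depth.

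Cytokine peaks opened (5) became 2 with DESeq2, 2 with an average log2 CPM over 0, 8 with library totals, 0 with TMM over weaker peaks, 2 with loess and 48 with nearest starts; peaks closed (65) became 30, 120, 12 and 103 with library totals, weaker peaks, loess and nearest starts. Start peaks closed (6) became 10 with weaker peaks and 0 with loess. Windows lower (10) became 6 with library totals and 2 with loess, and the 54 lower pathway windows became 24 and 6, with 1 higher with loess. Belinostat peaks opened (2) became 7 with library totals, 0 with weaker peaks, 9 with loess, 1 with 3 kb upstream and 8 with nearest starts; peaks closed (10) became 5 with weaker peaks and 20 with nearest starts. Over all peaks, those opened after belinostat (2034) became 3673 with library totals, 339 with weaker peaks and 3163 with loess. Those closed (5865) became 3325 with weaker peaks. The start peak closed (1) became 0 with weaker peaks and with loess, where 1 opened. SMAD7's window made 1 higher with DESeq2, library totals and loess, and nearest starts gave 1 lower. Pathway windows higher (0) became 2 with library totals and 4 with loess, and lower (3) became 5 with library totals. Against unstimulated, peaks opened (10) became 1 with weaker peaks, 1 with an average log2 CPM over 0, 26 with library totals and 72 with nearest starts. Peaks closed (72) became 138, 36, 20 and 116 with weaker peaks, library totals, loess and nearest starts. Over all peaks, opened (56111) became 9267 with weaker peaks, 25410 with an average log2 CPM over 0 and 101897 with library totals. Closed (45962) became 102230, 21124 and 16493 with weaker peaks, library totals and loess. Start peaks closed (10) became 0 with loess, where 1 opened; windows lower (10) became 4 and higher 1 with loess; pathway windows lower (56) became 36 and 14 with library totals and loess, and higher 1 and 4. The loess offsets remove by construction the trend in which strong peaks fell; the cause of the other changes was not tested.

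Signs turned mostly with loess. In the cytokine contrast the TGFB2 and TGFB3 windows went to 0.059 and 0.028, the start peaks of TGFB2 to 0.19, TGFBR2 to 0.16, TGFB1 to 0.11, TGFB3 to 0.080, SMAD6 to 0.026 and SMAD2 to 0.021, the TGFB1 peak chr19:41322948-41323964 to 0.052 and the TGFBR3 peak chr1:91712971-91713769 to 0.0054. In the belinostat contrast the SMAD6 and TGFB2 windows went to 0.097 and 0.034 and the start peaks of SMAD6 to 0.20, SMAD3 to 0.075, TGFB1 to 0.055, TGFBR3 to 0.038 and TGFBR1 to 0.010; against unstimulated, the SMAD7 and TGFB2 windows went to 0.15 and 0.093. Library totals turned the belinostat SMAD6 window to 0.058 and its start peak to 0.062, the SMAD7 window against unstimulated to 0.029 and the cytokine TGFB2 start peak to 0.062, and TMM over weaker peaks turned the belinostat SMAD7 start peak to -0.086.

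With 1 library left out, cytokine peaks opened ranged from 2 (without unstimulated replicate 6) to 6, and closed from 45 to 69. Of all peaks, 5.52% opened and 6.18% closed without unstimulated replicate 6. Without DMSO replicate 3, the fit with 6 and 69, it was 10.7% and 11.1%. Belinostat peaks opened ranged from 0 (without belinostat replicate 1 or 6) to 4 (without belinostat replicate 4). Of all peaks 0.855%, 0.467% and 0.665% opened without belinostat replicates 1, 6 and 4. Start peaks closed ranged from 0 to 2 and windows lower from 0 to 7 (without belinostat replicate 1, where 22.6% of all windows were lower). The belinostat SMAD6 window ranged from -0.082 to 0.020, its start peak from -0.083 to 0.041 and the SMAD7 start peak from -0.066 to 0.077.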

Other observations

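Over the 18 libraries, with loess offsets, the protein-coding windows whose level followed the mean of the 10 member windows most closely were DUSP11 (Pearson r = 0.91), C2orf78 (0.90) and MTX3 (0.90), among 19165 windows that hold no member and share no peak with one. The libraries share group and depth, so these correlations are descriptions.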
